A study of Mus musculus with 3 samples.

Results

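A set of 10 genes of the Notch pathway was followed in multipotent progenitors (MPPs) labelled Mef2c-deficient and in control MPPs: the receptor genes Notch1, Notch2, Notch3 and Notch4, the nuclear partners Rbpj and Maml1, and Hes1, Hey1, Dtx1 and Nrarp, which Notch signalling switches on in many tissues. They were chosen by gene name, with Rbpsuh, the older name of Rbpj, included. The rule used no measured value, but earlier results of these data were known when the genes were chosen. Together they had 13 of the 41174 probes on the array and 22 of its 43379 gene spots.

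The tested samples were MPPs of Mx1-cre+ Mef2cfl/fl mice, and the reference samples were MPPs of Mef2cfl/fl mice, which carry the same floxed alleles without the recombinase. Mice of both genotypes had received 250 µg of the RNA analog poly(I:C) on 4 days, and marrow was taken 2 days after the last dose. Mx1-Cre is driven by an interferon-inducible promoter that is active in many tissues besides blood progenitors, so the deletion need not be limited to the sorted cells. An effect of Cre cannot be told apart from that of Mef2c loss. MPPs here are marrow cells low in 5 lineage markers and positive for c-kit and Sca-1, sorted at 15000 cells per sample. Ages and the number of animals behind a sample were not found in the labels. RNA was amplified by PCR of its cDNA, and 3 two-colour arrays each compared 1 mutant sample in Cy3 with 1 control sample in Cy5. Without a dye swap in the labels, dye and genotype cannot be told apart. The labels do not say that replicates were separate animals, so p-values measure the spread between these samples, which may be technical.

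Notch receptors are cut after they bind a ligand on a neighbouring cell, and the freed intracellular part enters the nucleus. There it joins the DNA-binding protein RBPJ and a Mastermind co-activator such as MAML1, and the complex turns on target genes. In the blood system Notch1 is known for directing progenitors into the T cell lineage in the thymus, and Notch2 for marginal zone B cells.

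RBPJ binds DNA at a short core, TGGGAA. To show what such a site looks like, the 250 bases before the gene start of Rbpj itself and of the Notch target gene Hes5 are given from RefSeq (build GRCm38.p6), each with 2 matches. Capitals mark TGGGAA on either strand, so a match on the reverse strand reads TTCCCA. The Rbpj window is chr5:53590096-53590345 on the + strand, with matches that begin 149 and 65 bases before the start. Another listed start of Rbpj, with the window chr5:53590236-53590485, had 1 match, which begins 205 bases before that start. The Hes5 window is chr4:154960673-154960922 on the + strand, with matches that begin 226 and 82 bases before the start.
Rbpj: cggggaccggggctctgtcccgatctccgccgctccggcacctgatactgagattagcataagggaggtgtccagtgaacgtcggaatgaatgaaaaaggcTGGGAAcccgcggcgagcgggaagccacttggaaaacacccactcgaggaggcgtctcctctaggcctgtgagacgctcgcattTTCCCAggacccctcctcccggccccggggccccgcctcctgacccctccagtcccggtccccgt
Hes5: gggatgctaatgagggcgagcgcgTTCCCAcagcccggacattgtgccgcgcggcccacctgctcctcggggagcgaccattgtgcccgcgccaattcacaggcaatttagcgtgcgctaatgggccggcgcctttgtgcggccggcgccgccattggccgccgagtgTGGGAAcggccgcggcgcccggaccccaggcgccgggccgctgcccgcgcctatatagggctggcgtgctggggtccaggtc

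Such matches are common: 21.6% of 32851 listed promoters had at least 1 in this window and 2.77% had 2 or more. The listed windows of Notch1, Notch2, Notch3, Notch4, Dtx1, Maml1 and Nrarp held none. Of the other pathway genes searched, Jag2, Tcf7, Gata3 and Hhex held none either. An empty window says only that these letters are not there. Hes1 and Hey1 had no listed window. A match is a description of sequence, and the arrays did not measure binding.

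Each array's log2 ratio of mutant over control was normalized within the array, and signals of single libraries are given on the log2 scale. A signal can be compared between libraries for 1 probe, and not between probes. Of the 10 genes, 9 had a probe bright enough to be tested among 22212 genes, and 8 were well above background in all 6 libraries. Over all genes 0 passed an adjusted p of 0.05 by limma (0%), so no Notch gene did. Signs follow the labelled dyes. For array 2, however, the authors' deposited column follows the scanner's Cy5 over Cy3 ratio (r = 0.935). The columns of arrays 1 and 3 oppose it (r = -0.947 and -0.939), so the direction of array 2 is not settled. As labelled, the log2 ratios over genes correlated at r = 0.306 for arrays 1 and 2. The r was 0.128 for arrays 1 and 3 and 0.0394 for arrays 2 and 3. Turning array 2 gives the correlations that involve it the other sign. Why its deposited column differs was not tested. On arrays 1, 2 and 3 the tested Mef2c probe was at 0.08, 0.10 and -0.96 (log2 ratio), and its other probe was higher in the mutants on each array, at 1.07, 0.22 and 0.28. The part of the gene that was floxed is unknown here, so neither probe checks the genotype, and the loss of Mef2c rests on the labels. The sort markers Kit and Ly6a (Sca-1) were well above background in all 6 libraries.

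Notch1, the receptor of T lineage entry, was measured by 2 adjoining probes, and they gave the same picture of 2 arrays low and 1 high. Its main probe, spotted 10 times per array, had signals of 11.48, 10.87 and 12.07 in mutants 1, 2 and 3, against 12.19, 11.37 and 11.69 in controls 1, 2 and 3. The groups overlapped: mutant 3 and control 1 were the highest libraries and mutant 2 the lowest. The log2 ratio was -0.72, -0.51 and 0.39 on arrays 1, 2 and 3 and averaged -0.28 ± 0.59 (SD, n = 3; 95% interval -0.98 to 0.42; adjusted p = 0.714 by limma). The mean was -0.06 without array 1 and -0.61 without array 3 (unadjusted p = 0.0653). Within the limits of this interval the mutant level could lie anywhere between 0.51 and 1.33 times the control level. The second probe had ratios of -0.77, -0.42 and 0.18. The probe coordinates in the scanner output put the 2 probes end to end on the - strand of chromosome 2, at 26466563 to 26466621 and 26466621 to 26466680. The genome build of these coordinates was not stated, and whether the positions lie in a UTR was not looked up.

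The 10 spots of the main Notch1 probe show the spread within each array. Their ratios ran from -0.79 to -0.66 on array 1 (SD over spots 0.032), from -0.55 to -0.46 on array 2 (0.025) and from 0.25 to 0.59 on array 3 (0.14). On each array all 10 spots fell on the same side of 0. Among 245 probes with at least 10 spots, the SD over Notch1 spots ranked 23, 38 and 224 from the lowest on arrays 1, 2 and 3, so on array 3 they were among the more scattered. The arrays differ in their samples as well as in spot error.

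**Figure D1:**
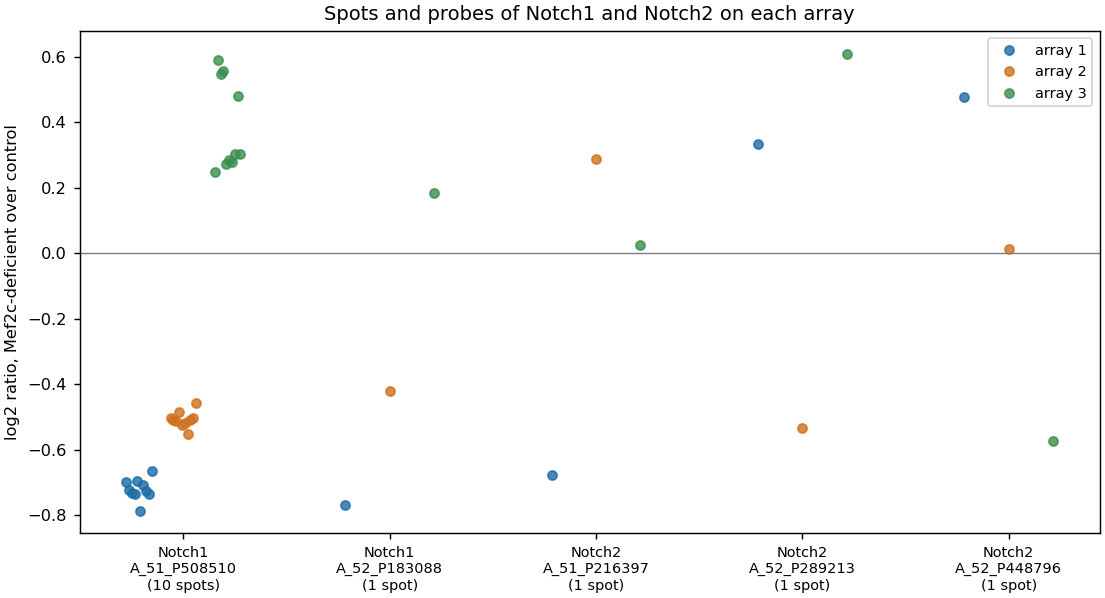
Log2 ratio of mutant over control (vertical axis) for the probes of Notch1 and Notch2 (horizontal axis), with 1 point per spot and colours for the 3 arrays. The 10 Notch1 spots form tight groups near -0.72 and -0.51 on arrays 1 and 2 and lie between 0.25 and 0.59 on array 3, whereas the 3 Notch2 probes order the arrays differently.

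Notch2, the receptor of marginal zone B cells, had 3 probes that did not share a direction. The tested probe, the brightest, had signals of 13.54, 13.23 and 14 in the mutants, against 13.21, 13.77 and 13.39 in the controls. Mutant 3 was highest, control 1 lowest, and the groups overlapped. Its log2 ratio was 0.33, -0.53 and 0.61 on arrays 1, 2 and 3 and averaged 0.14 ± 0.60 (SD, n = 3; 95% interval -0.57 to 0.84; adjusted p = 0.865 by limma). The probe for NM_010928 had ratios of -0.68, 0.29 and 0.03, opposite in sign to the tested probe on arrays 1 and 2. The third probe had 0.48, 0.01 and -0.57. The coordinates in the scanner output place the 3 probes along chromosome 3 with starts 1638 and 1071 bases apart, all on the + strand. The cause of the difference between probes was not tested.

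Notch3, a receptor gene that Notch1 signalling is known to turn on in thymocytes, was the only tested Notch gene with a lower ratio on all 3 arrays as labelled, where 20.3% of all genes did so and 15.2% were higher on all 3. With array 2 turned Notch3 was on both sides of 0 and 0 of the 9 genes were lower on all 3 (9.44% of all genes), while Notch2 and Nrarp were higher on all 3 (10.7% of all genes). Nrarp was not well above background in any mutant, so its signs carry no direction. The signals of Notch3 were 7.98, 8.16 and 7.57 in mutants 1, 2 and 3, against 9.52, 8.40 and 8.02 in controls 1, 2 and 3. Control 1 stood highest, and the groups overlapped because mutant 2 lay above control 3. The log2 ratio was -1.54, -0.24 and -0.45 and averaged -0.74 ± 0.70 (SD, n = 3; 95% interval -1.51 to 0.02), and it did not pass (unadjusted p = 0.0543, adjusted p = 0.494 by limma). Without array 1 the mean was -0.35. With median centring the unadjusted p was 0.0298, and the adjusted p stayed above the threshold under each alternative run (lowest 0.357).

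Notch4, known mainly from endothelium, showed no common direction. Its signals were 8.47, 8.73 and 8.90 in the mutants, against 8.49, 9.47 and 8.40 in the controls. Control 2 was the highest library and the groups overlapped. The log2 ratio was -0.02, -0.74 and 0.51 on arrays 1, 2 and 3 and averaged -0.08 ± 0.62 (SD, n = 3; 95% interval -0.80 to 0.63; adjusted p = 0.925 by limma). Among 12 markers of endothelium and stroma, 9 were well above background in all 6 libraries and 1, the vascular endothelial growth factor receptor gene Kdr, in none. Their summed signal was 13.8 to 14.2 in the mutants and 14.1 to 14.2 in the controls, and their part in the Notch4 values was not tested.

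**Figure D2:**
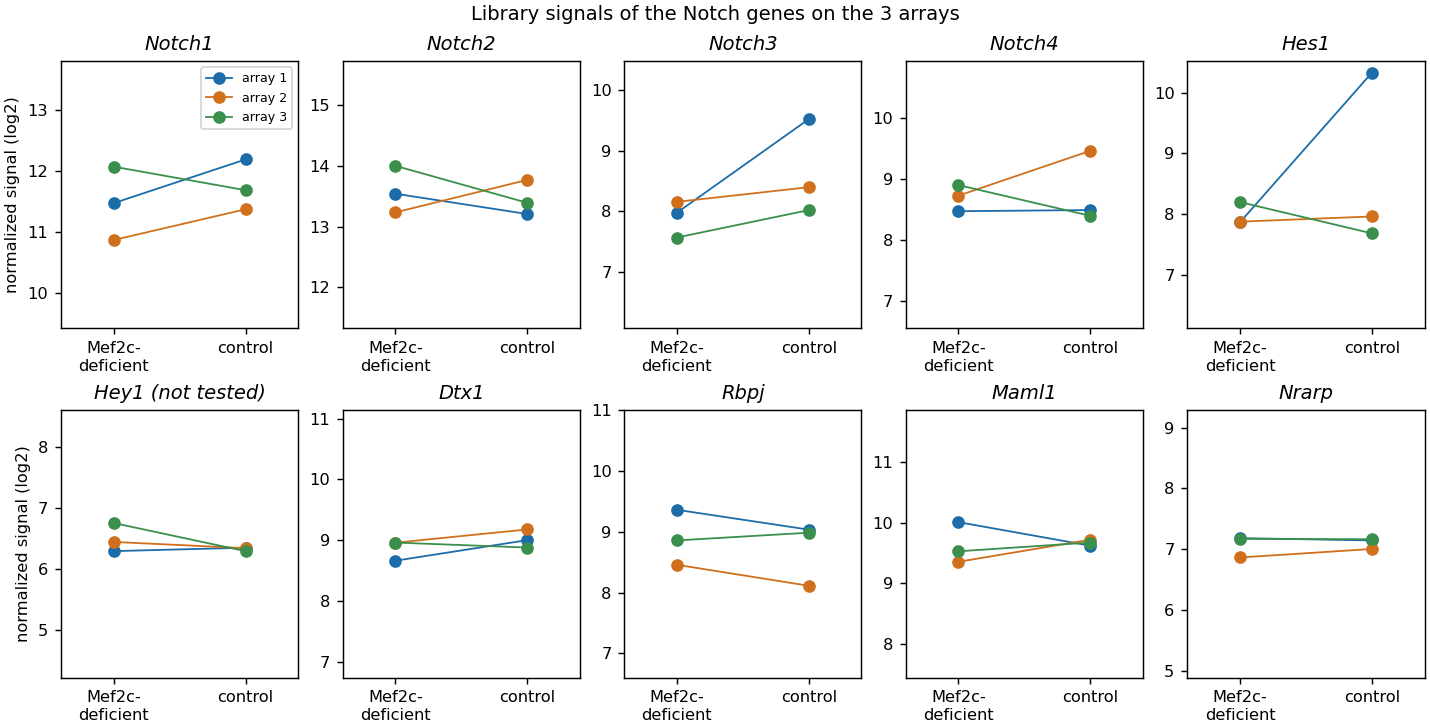
Normalized log2 signal (vertical axis) of each Notch gene in the mutant libraries (left) and control libraries (right), with a line joining the 2 samples of an array. Each panel spans the same log2 range around its own centre. All 9 tested genes overlap between the groups, and the line that stands out is array 1 of Hes1, at 7.87 in the mutant and 10.33 in the control.

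The nuclear partners shared no direction. Rbpj, the DNA-binding core of the pathway, had signals of 9.36, 8.46 and 8.86 in the mutants, against 9.04, 8.11 and 8.99 in the controls. Both samples of array 2 were low, so here the libraries of 1 array moved together. The ratios were 0.33, 0.34 and -0.13 on arrays 1, 2 and 3 and averaged 0.18 ± 0.27 (SD, n = 3; 95% interval -0.36 to 0.72; adjusted p = 0.759 by limma). Maml1, a co-activator that joins RBPJ and cleaved Notch, had signals of 10.01, 9.35 and 9.53 in the mutants, against 9.62, 9.72 and 9.67 in the controls. The controls lay within 0.0985 of each other and the mutants spread around them on both sides. Here the log2 ratio was 0.39, -0.36 and -0.14 and averaged -0.04 ± 0.39 (SD, n = 3; 95% interval -0.63 to 0.55; adjusted p = 0.957 by limma).

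Hes1, a repressor of the basic helix-loop-helix family and a widely used readout of Notch signalling, differed by the largest amount on any single array among these genes, and that difference lay in 1 library. Its signals were 7.87, 7.88 and 8.20 in mutants 1, 2 and 3, against 10.33, 7.96 and 7.68 in controls 1, 2 and 3. Control 1 was 2.50 above the mean of the other controls, whereas the other 5 libraries lay close together. The log2 ratio was -2.46, -0.09 and 0.51 on arrays 1, 2 and 3 and averaged -0.68 ± 1.57 (SD, n = 3; 95% interval -2.08 to 0.73; adjusted p = 0.661 by limma). Its SD over arrays was at the 98.7th percentile of all genes tested. Without array 1 the mean was 0.21, with the opposite sign.

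Control library 1 stood apart in other genes too. Of 13 immediate early and heat shock genes measured, a list of genes that cells turn on within minutes of handling or stimulation, 12 were highest there, and their mean log2 ratio was -4.64, -0.43 and -0.06 on arrays 1, 2 and 3. Their summed signal ran from 16.2 to 17.2 in the mutants and from 17.3 to 19.3 in the controls. The AP-1 gene Fos had 10.1, 13.2 and 12.2 in the mutants, against 16.6, 13.8 and 12.2 in the controls. Neutrophil markers were also high in control library 1, where 6 of 8 had their highest signal, with summed signals of 13.8 to 14.1 in the mutants and 13.8 to 16.6 in the controls. Hes1, Notch3 and Notch1 were the 3 of 9 tested Notch genes with their highest signal in this library, Notch1 by little (12.19, against 12.07 in mutant 3). The share of all genes with their highest signal there is not given, so this count cannot be read as an excess. The part of these genes in the Notch values was not tested. In sorted bulk samples, fewer cells that express a gene and less RNA per cell cannot be told apart.

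**Figure D3:**
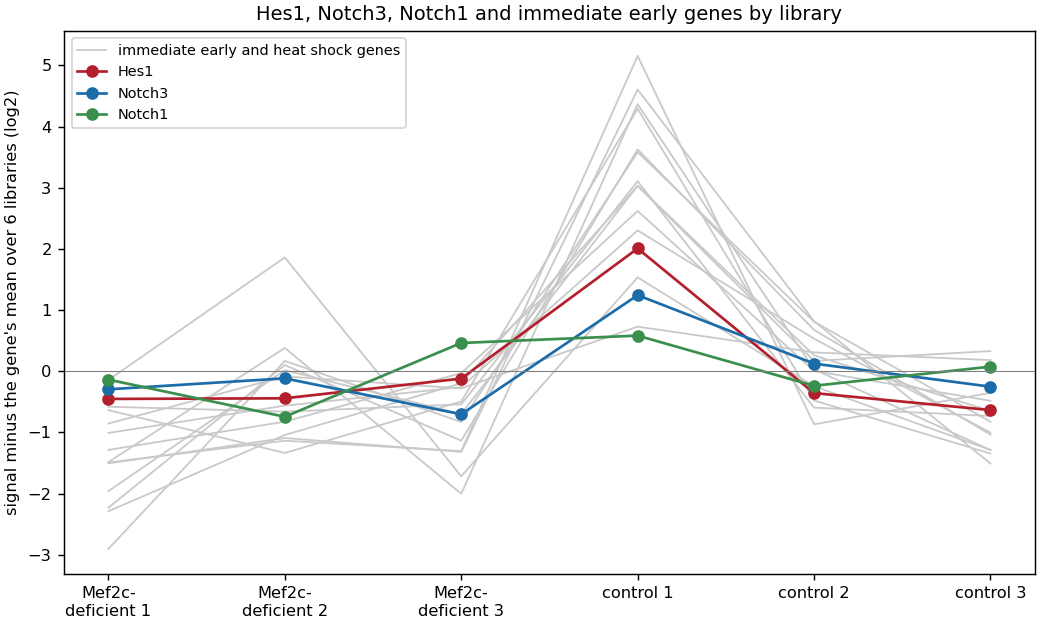
Log2 signal minus each gene's mean over the 6 libraries (vertical axis) by library (horizontal axis), for Hes1, Notch3 and Notch1 in colour and 13 immediate early and heat shock genes in grey. Most grey lines peak in control 1, as do Hes1 and, less far, Notch3, and Notch1 is nearly as high in mutant 3.

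Of the other target genes, Dtx1 and Nrarp were tested and neither passed. Dtx1, which encodes the ubiquitin ligase Deltex and is induced by Notch in early T cells, had signals of 8.66, 8.96 and 8.96 in the mutants, against 9.002, 9.18 and 8.88 in the controls. The groups overlapped, and their ranges of 0.299 and 0.298 were alike. On the 3 arrays the log2 ratio was -0.34, -0.22 and 0.08 and averaged -0.16 ± 0.22 (SD, n = 3; 95% interval -0.68 to 0.37; adjusted p = 0.783 by limma). Nrarp, an ankyrin repeat protein that Notch induces and that damps the pathway, was not well above background in any mutant and was so in controls 1 and 2. It therefore passed the filter through the controls. Its signals were 7.18, 6.86 and 7.17 in the mutants, against 7.14, 7.002 and 7.16 in the controls. The log2 ratios were 0.04, -0.14 and 0.01 (mean -0.03 ± 0.09, SD, n = 3; adjusted p = 0.960 by limma). With the mutants not well above background these ratios carry no direction, and the sign of the mean changed without array 2, with array 2 turned and with median centring.

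Hey1, a repressor related to Hes1, was not well above background in any of the 6 libraries and was not tested. Its signals of 6.29, 6.44 and 6.75 in the mutants and of 6.35, 6.34 and 6.29 in the controls are bounds, and no fold is given. The arrays thus placed Hey1 below their range of measurement in these progenitors, and Nrarp at its edge.

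**Figure D4:**
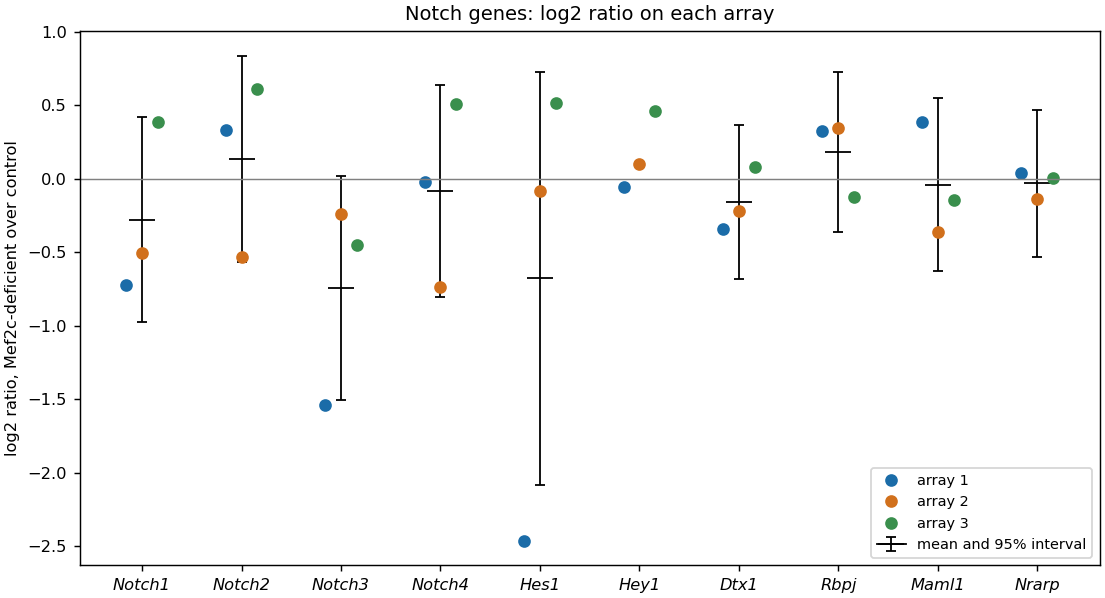
Log2 ratio of mutant over control (vertical axis) for the 10 Notch genes (horizontal axis), with a point for each of the 3 arrays and, in black, the mean with its 95% interval from limma. The intervals of the 9 tested genes all include 0, and as labelled Notch3 alone has its 3 points on 1 side of 0. With array 2 turned Notch2 and Nrarp would, and Notch3 would not, but Nrarp was not well above background in any mutant. Hey1 was not tested and has points only.

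The 9 tested Notch genes can be read against all genes. At an unadjusted p under 0.05 there were 0 of them, where 10.1% of all genes passed (4.81% higher and 5.32% lower). Libraries of the 2 groups overlapped for all 9, where 11.8% of all genes had every mutant below every control and 7.22% every mutant above. The median log2 ratio was -0.08 over the 9 genes and -0.04 over all genes. With median centring in place of loess these medians were -0.33 and -0.18, and of all genes with an unadjusted p under 0.05, 552 were then higher and 2320 lower, against 1069 and 1181 with loess. With array 2 turned, the means of Notch1, Notch4, Rbpj, Maml1 and Nrarp took the other sign, at 0.06, 0.41, -0.05, 0.20 and 0.06. The mean of Notch2 was then 0.49 (unadjusted p = 0.0873 by limma), and the median of the 9 genes 0.06. The 9 are not all the genes chosen, since Hey1 is missing, and Nrarp entered through 1 group. The spread between arrays was wider than usual for several of them: the SD of the log2 ratio had a median of 0.59 over the 9 genes, against 0.40 over all tested genes. The width of the intervals means that a missed threshold does not show the genotypes to be alike.

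The rest of the pathway was read from 88 other genes in 10 lists by role, of which 83 were tested. Over all genes none of them passed by limma. At an unadjusted p under 0.05, 3 were higher (3.61%, against 4.81% of all genes) and 8 lower (9.64%, against 5.32%), with a median log2 ratio of -0.07. The 8 include Tcf7, Gata3 and Ikzf1, which were known to be low in these data when the lists were drawn up. With array 2 turned, 0 of these 11 genes had an unadjusted p under 0.05 (lowest 0.116), and of the 83 genes 1 was higher and 1 lower (1.20% each, against 1.51% and 1.39% of all genes). Counts by list are likewise at an unadjusted p under 0.05, with adjusted p by limma. The genes named here are, for each list, the 2 with the smallest p, besides Hhex, which was added after its values were seen.

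Among ligands, 1 of 7 was lower at an unadjusted p under 0.05 and 0 higher. Jag2, a ligand of the Serrate type, had signals of 8.28, 7.66 and 7.75 in the mutants, against 9.02, 9.18 and 8.44 in the controls, so every mutant lay below every control. Its log2 ratio was -0.98 ± 0.46 (SD, n = 3; unadjusted p = 0.00877, adjusted p = 0.461). With array 2 turned the mean was 0.03. Dlk1, a non-canonical ligand, was at 0.31 ± 0.26, and its other probe at 0.48 ± 1.05. In the ligand-sending machinery, 1 of 7 was higher: the endocytic adaptor gene Epn1 had 1.12, 0.17 and 0.83 on arrays 1, 2 and 3, but its other probe had a mean of 0.03. The ubiquitin ligase gene Neurl1a was at -0.45 ± 0.69, and its other probe at 0.42.

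Of the 5 genes that put sugars on Notch receptors, 1 was lower. Mfng, the Manic fringe glycosyltransferase that alters which ligands a receptor answers to, had 13.06, 12.78 and 12.61 in the mutants, against 13.82, 13.56 and 13.22 in the controls. The groups did not overlap, and the ratios of -0.75, -0.78 and -0.61 lay close together (mean -0.72 ± 0.09, SD, n = 3; unadjusted p = 0.0130, adjusted p = 0.463), and -0.19 with array 2 turned. Pofut1, which adds the fucose that fringe enzymes extend, was at 0.39 ± 0.63, and its other probe at 0.58 ± 0.51. Of 9 receptor cleavage genes, 1 was higher and 0 lower. Aph1a, a subunit of the gamma-secretase that releases the intracellular part, was at 0.77 ± 0.33 (unadjusted p = 0.0158, adjusted p = 0.463), with 0.27 for its other probe and 0.04 with array 2 turned. Adam10, the protease of the preceding cut, had 1.99, 0.80 and -0.41, with a mean of 0.79, and of 0.26 with array 2 turned.

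Receptor turnover genes gave 0 of 9 in either direction, with the ubiquitin ligase genes Itch at 0.59 ± 0.51 and Fbxw7 at -0.29 ± 0.08. The 3 other probes of Itch had a mean of 0.06, and the other probe of Fbxw7 had 0.14, the opposite sign. Nuclear co-activators gave 1 of 9 higher: Ccnc, cyclin C of the Mediator kinase module, had 1.08, 0.58 and 0.32 on the 3 arrays, and its other probe a mean of 0.56. Its mean was 0.66, and 0.27 with array 2 turned. The acetyltransferase gene Crebbp was at -0.50 ± 0.42, and its 2 other probes had means of -0.34 and 0.01. Co-repressors gave 0 of 16, with Cir1 at -0.55 ± 0.57 and -0.13 for its other probe. The demethylase gene Kdm5a was at -0.48 ± 0.48, and its 3 other probes had means from -0.63 to 0.42.

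In the remaining HES and HEY genes, 1 of 7 was lower. Hes5, whose promoter window is printed above, had signals of 13.56, 14.30 and 14.29 in the mutants, against 14.90, 14.67 and 14.63 in the controls. Every mutant was below every control, and mutant 1 was lowest. The log2 ratios were -1.34, -0.37 and -0.35 and averaged -0.69 ± 0.57 (SD, n = 3; unadjusted p = 0.0494, adjusted p = 0.492), and the mean was -0.36 without array 1 and -0.44 with array 2 turned. Hey2 was at 0.38 ± 0.29.

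The list of Notch-linked genes of early T cells held 3 of 6 tested genes lower at an unadjusted p under 0.05 and 0 higher, though Tcf7, Gata3 and Ikzf1 were known to be low in earlier results of these data when the lists were drawn up, so the counts are not independent evidence. Tcf7, the factor TCF-1 that Notch1 induces at T lineage entry, had signals of 9.99, 8.94 and 8.95 in the mutants, against 11.67, 11.11 and 10.70 in the controls. Its log2 ratio was -1.86 ± 0.26 (SD, n = 3; unadjusted p = 0.000170, adjusted p = 0.461). The ratios were -1.68, -2.17 and -1.75 on arrays 1, 2 and 3. Its other probe had -2.08, -0.14 and -1.08 (mean -1.10 ± 0.97), so the probes of Tcf7 differed most on array 2. Gata3, a factor of the same step, had 9.02, 8.21 and 8.33 in the mutants, against 10.51, 9.70 and 9.52 in the controls (log2 ratio -1.39 ± 0.17; unadjusted p = 0.000633, adjusted p = 0.461). Hhex, a homeobox gene of progenitors that is shut off as T cells commit, was at -0.83 ± 0.36, and at -0.02 with array 2 turned. The other probe of Hhex had a mean of -0.59 as labelled. Turning array 2 gave means of -0.42 for Tcf7 and -0.39 for Gata3. Some cell type markers had an unadjusted p under 0.05 as well, in both directions, where 10.1% of all genes did. None of them passed the adjusted threshold. Of 10 T cell markers, 8 were well above background in all 6 libraries. Their mean log2 ratio was -0.24, -0.41 and -0.13 on arrays 1, 2 and 3. At an unadjusted p under 0.05, 1 of the 10 was lower and 0 higher. Cd3g, a chain of the T cell receptor complex, was at -0.97, -0.76 and -0.57 (unadjusted p = 0.0116, adjusted p = 0.463 by limma). The summed signals of the T cell markers were 14.3 to 14.6 in the mutants and 14.5 in the controls, a sum that holds the bright Cd8b1, at a mean of 0.43. Among 7 gate and progenitor genes, the sort marker gene Ly6a was at 0.93, 0.51 and 1.02 (unadjusted p = 0.0103 by limma). The cytokine receptor gene Flt3, which marks lymphoid-primed progenitors, was at -1.02, -1.26 and -1.19 (unadjusted p = 0.00147, adjusted p = 0.461 by limma). Slamf1, a stem cell marker, was at 1.003, 2.28 and 0.20 (unadjusted p = 0.0303, adjusted p = 0.468 by limma). For both Flt3 and Slamf1 the ratio farthest from 0 was on array 2, whose direction is not settled. Means with array 2 turned are not given for Cd3g, Ly6a, Flt3 and Slamf1, so their directions rest on the labels. Kit, Cd34, Gata2 and Cd48 had ratios on both sides of 0 (unadjusted p from 0.222 to 0.324 by limma). The part of these markers in the values of Tcf7, Gata3 and Ikzf1 was not tested.

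Among modulators, 2 of 8 were lower and 0 higher. Ikzf1, the gene of Ikaros, which restrains Notch targets in T cells, had ratios of -1.09, -1.14 and -1.19 (mean -1.14 ± 0.05, SD, n = 3; unadjusted p = 0.00143, adjusted p = 0.461), and -0.38 with array 2 turned. Egfl7, a secreted protein that binds Notch, was at -0.88 ± 0.65, and at 0.17 with array 2 turned.

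**Figure D5:**
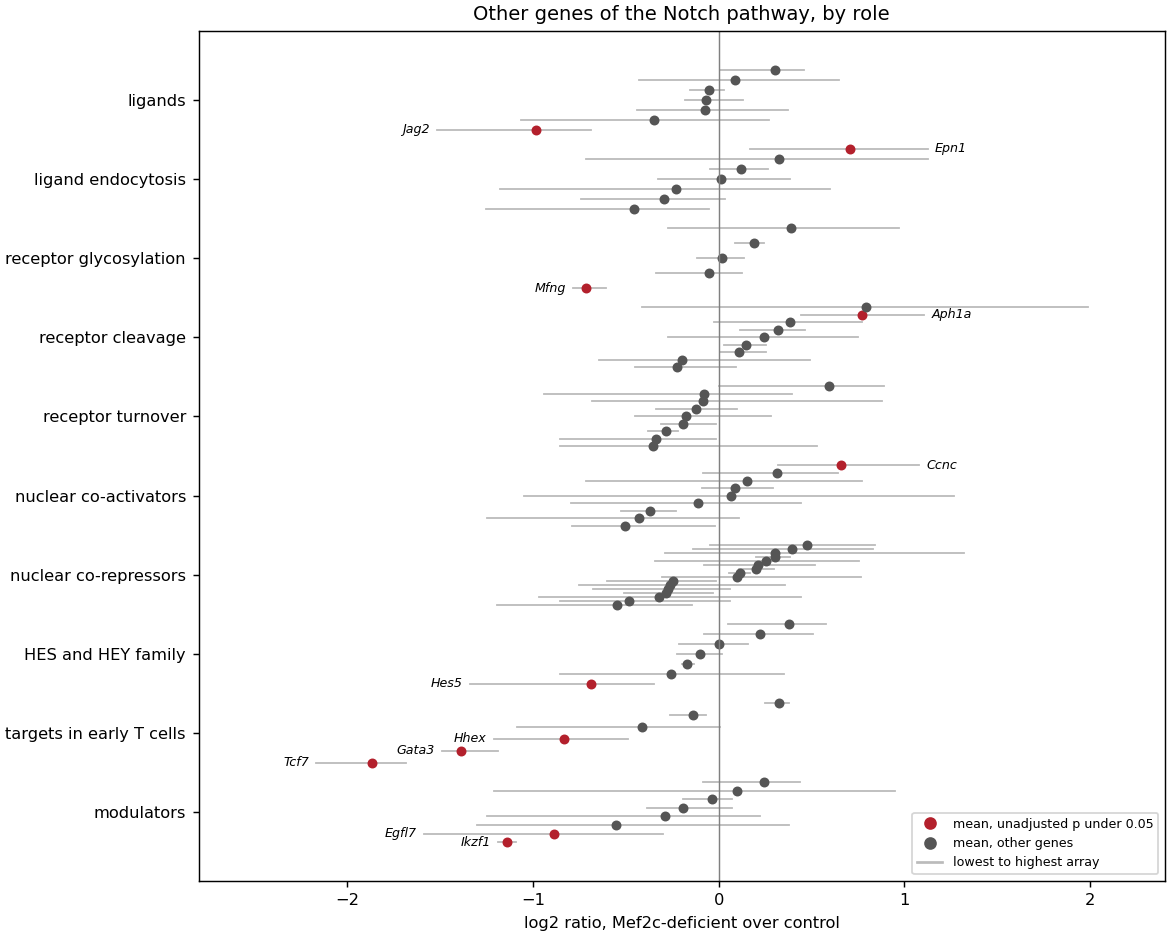
Log2 ratio of mutant over control (horizontal axis) for 83 tested genes of the Notch pathway in 10 lists by role (vertical axis). Points are means of 3 arrays, grey bars run from the lowest to the highest array, and the 11 red, named genes had an unadjusted p under 0.05, 8 of them lower.

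Over the 6 libraries, the genes whose signals ran closest to those of Notch1 were Arrdc3, Prkra and Birc2, with root mean square differences of 0.07, 0.09 and 0.10 on the log2 scale after each probe was centred on its own mean. Their log2 ratios were -0.18, -0.15 and -0.35. The likeness was taken among 19497 genes over libraries that share arrays and a slide.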

How the data were processed

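Spot intensity is on a linear scale in the deposited scanner files, whose headers name version 9.5.1.1 of Agilent Feature Extraction. Foreground means and local background medians were read from them. Processed signals, flags and the log10 of the Cy5 to Cy3 ratio stand beside them, per the file headers. The authors deposited a log2 ratio per spot in a separate table; the submitters' processing notes name limma, without its version, and the normalization is not stated there. Matched to the spots in order, and with array 2 turned, these values differed from loess ratios made without background correction by a median of 0.000971 to 0.00149.

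Here normexp (offset 50) and loess within arrays were run in limma 3.58.1 (R 4.3.3). Control spots had weight 0 and outlier spots were dropped. Aquantile scaled library signals between arrays. Kept probes passed the scanner's well-above-background flag on 2 or more arrays in 1 channel. That flag was set for 73.4% to 80.4% of probes per library, and 0 spots were saturated. Precision is limited by the 3 arrays, which share 1 slide. RefSeq gave current symbols (23075 probes by accession, 6587 by symbol, 3072 by synonym), and 8440 probes kept the file's name. The brightest kept probe stood for a gene. Ratios were tested against 0 (lmFit, eBayes, Benjamini-Hochberg over 22212 genes), and the code was tested on simulated data.

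Members and lists were chosen with earlier results of these data known. The naming rule took all 10 Notch genes by every probe, Mef2c, the 2 genes of each other list with the smallest p where fewer than 2 passed, and the 3 genes most like Notch1. Alternatives changed the background correction, normalization, filter, probe choice, direction of array 2 and variance model, or left out an array.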

Additional observations from a re-analysis of the deposited data

How the results depend on the processing

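No Notch gene passed an adjusted p of 0.05 under any alternative run, and 0 of all genes did in any of them. Of 125 values of the 9 tested Notch genes under alternatives, 51 equal the reported ratio, since those settings leave it as it is. Of the 74 that differ, 60 kept their sign and 14 did not. For the other named genes the lowest adjusted p was 0.291. Alternatives for those other genes, and list counts with array 2 turned, were chosen after seeing the data. Genes with an unadjusted p under 0.05 numbered 2250, and 644 with array 2 turned (336 higher, 308 lower). Leaving out 1 array gave 1300 (without array 1) to 2728 (without array 3). Of the Notch genes, 1 (Notch3) had an unadjusted p under 0.05 with median centring, 1 (Notch3) among probes well above background in all channels, and 0 to 1 when an array was left out (1, Notch3, without array 2). The Notch genes' median log2 ratio was -0.33 with median centring, and -0.28 (without array 3) to 0.022 (without array 2). Turning array 2 gave 0.058 for Notch1, 0.41 for Notch4, -0.048 for Rbpj, 0.20 for Maml1, 0.062 for Nrarp, 0.027 for Jag2 and 0.17 for Egfl7. Median centring gave -0.038 for Rbpj and 0.049 for Nrarp. The mean of all kept probes gave -0.0035 for Notch2 and 0.13 for Mef2c. Leaving out 1 array moved Notch1 between -0.61 (without array 3) and -0.06 (without array 1), Notch2 between -0.10 (without array 3) and 0.47, Notch4 between -0.38 and 0.24 (without array 2), Hes1 between -1.27 and 0.21 (without array 1), Maml1 between -0.25 and 0.12 (without array 2), Nrarp between -0.066 and 0.022 (without array 2) and Mef2c between -0.44 and 0.094 (without array 3). Notch3 and Dtx1 kept their sign under each alternative. The causes of these shifts were not tested. The analysis is already paired, because each array gives 1 ratio of a mutant and a control sample, so the pairing is part of every value. Signals near background limit Nrarp and Hey1.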

Other observations

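On array 3 the 10 spots of the main Notch1 probe fell into 2 sets. A set of 4 spots had log2 ratios of mutant over control from 0.48 to 0.59, and the other 6 had 0.25 to 0.30. The widest gap between neighbouring ratios was 0.18 there, against 0.05 on array 1 and 0.03 on array 2. Raw Cy3 intensity of the mutant was 3023 to 3273 in the 4 spots and 2859 to 3276 in the other 6. Raw Cy5 intensity of the control was 4310 to 4516 in the 4 spots and 4778 to 5347 in the other 6. In the scanner's processed signals the sets nearly adjoined, with log2 ratios of 0.45 to 0.54 in the 4 spots and 0.31 to 0.43 in the other 6. The sets were seen in the values and were not tested.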
